A study of Talinum fruticosum with 24 samples.

Results

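The pseudo-response regulators of the circadian clock were followed in leaves of Talinum triangulare (Talinum fruticosum in the sample labels), a herb that can switch from C3 photosynthesis to crassulacean acid metabolism (CAM), the nocturnal fixation of CO2, when water is short. The family comprised 5 genes, chosen by Arabidopsis identifier from the 22079 genes of the deposited count table: TOC1 (AT5G61380), PRR3 (AT5G60100), PRR5 (AT5G24470), PRR7 (AT5G02810) and PRR9 (AT2G46790). All 5 were in the table, and all 5 passed the filter on low counts that left 14065 genes for testing. The table's own annotation describes PRR3, PRR5, PRR7 and PRR9 as pseudo-response regulators and TOC1 as a CCT-motif response regulator. All plants were watered for 28 days and then left dry for 12 days. CAM leaves were harvested at that point, and reC3 leaves came from plants re-watered for a further 2 days. Each mode was sampled at midday (MD, zeitgeber time 6 h), at the end of the day (ED, 12 h), at midnight (MN, 18 h) and at the end of the night (EN, 24 h), with 3 biological replicates in each of the 8 groups. No leaf of a plant that had never been dry was analysed here, so photosynthetic mode, current water supply and the days of recovery cannot be told apart.

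In Arabidopsis the family forms a chain of transcriptional repressors that come on one after another through the day: PRR9 in the morning, then PRR7 and PRR5, then PRR3, and TOC1 in the evening. Each protein carries a receiver-like domain and a DNA-contacting CCT domain. PRR9, PRR7, PRR5 and TOC1 repress the dawn genes CCA1 and LHY, which in turn repress evening genes, and this mutual repression keeps the clock running. In CAM plants the clock also sets when phosphoenolpyruvate carboxylase is activated at night. The roles named here are those known in Arabidopsis.

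The 24 libraries held 4310225 to 8756145 assigned reads each. Levels are given as CPM, read counts divided by library size, after scaling by trimmed mean of M values (TMM). They compare libraries for 1 gene and are not divided by gene length, so they do not rank the 5 genes against each other. Libraries of MD and MN were taken over from a preceding series, whereas those of ED and EN were made for the present one, so only MD against MN and ED against EN compare times within 1 set of libraries. TMM factors lay between 0.608 (reC3 EN replicate 1) and 1.43 (reC3 ED replicate 2). The library reC3 EN replicate 1 correlated least with its own group (mean r = 0.941, against up to 0.986 elsewhere). Replicates 2 and 3 of reC3 EN were also low, at 0.952 and 0.966, as were the reC3 MD libraries at 0.964, 0.976 and 0.962. In reC3 MD replicate 3 the 10 most abundant genes took 12.6% of the reads, against 23.5% and 20.3% in the other reC3 MD libraries. Reads of this species were counted under Arabidopsis identifiers, and a read shared by relatives may sit under either name. The annotation gives PRR3 and PRR7 as each other's best match, PRR9 as that of PRR5, PRR3 as that of TOC1, and AT2G46670, a CCT motif family gene, as that of PRR9. In whole leaves, fewer cells of a type and less RNA per cell cannot be told apart.

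TOC1, the evening repressor at the end of the chain, was the member that was higher in CAM leaves at every time sampled. At MD it stood at 8.58, 8.62 and 11.3 CPM in the CAM libraries and at 4.35, 3.30 and 3.57 CPM in the reC3 libraries. At ED the CAM libraries held 162, 187 and 153 CPM, against 100.2, 84.7 and 84.7 CPM in reC3 libraries. All CAM values lay above all reC3 values at both times. At MN TOC1 was at 173, 164 and 165 CPM in CAM leaves, against 85.0, 93.3 and 88.4 CPM in reC3 leaves. At EN it was at 109, 130 and 118 CPM in CAM leaves and at 40.4, 43.8 and 49.3 CPM in reC3 leaves. Again no CAM library overlapped a reC3 library of its time.

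**Figure D1:**
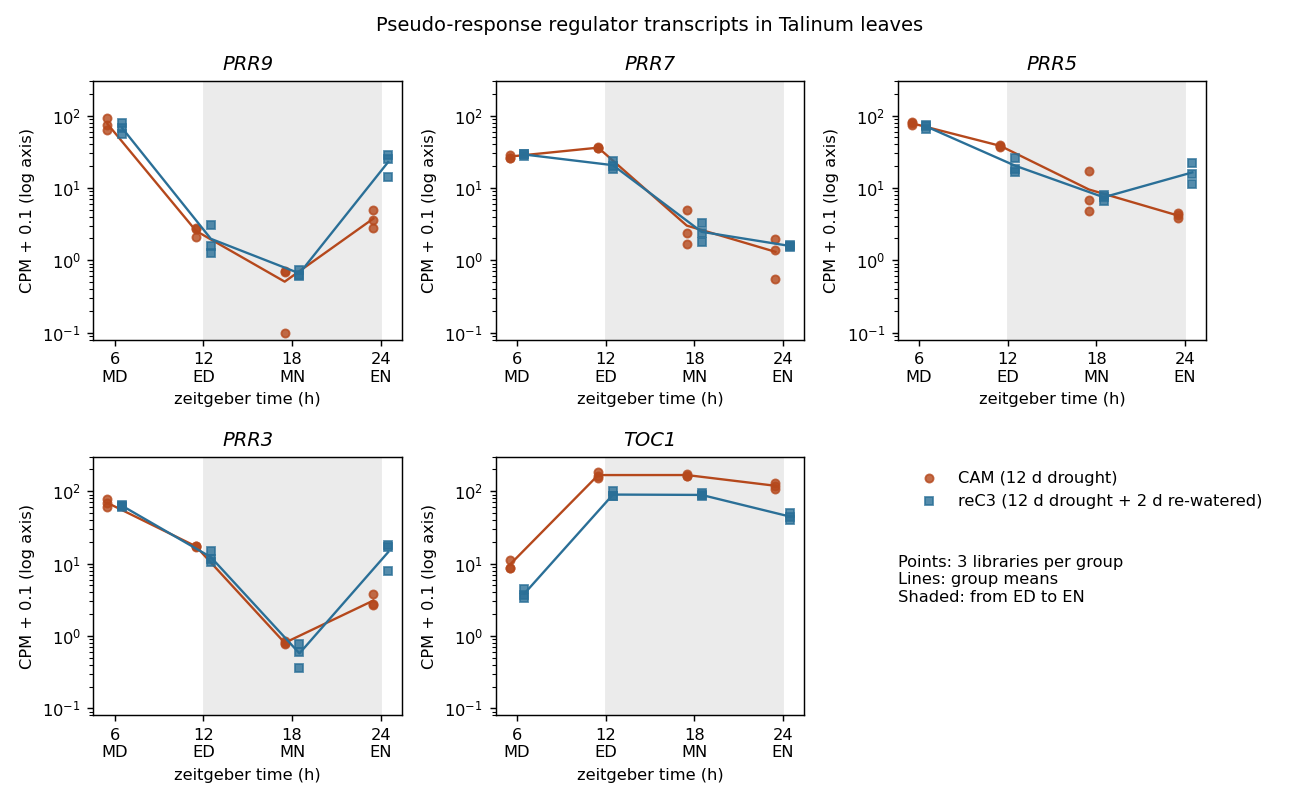
Level of each of the 5 genes (TMM-scaled CPM, log axis with 0.1 CPM added so that a library with no read can be drawn) at MD, ED, MN and EN in CAM and reC3 leaves; points are libraries, lines join the means of 3. TOC1 is low at MD in both modes and higher in CAM leaves throughout, while PRR9, PRR5 and PRR3 separate at EN, where reC3 leaves are higher.

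The TOC1 difference between modes (log2 of CAM over reC3, with its standard error) amounted to 1.35 ± 0.167 at MD (adjusted p = 1.25e-06) and 0.90 ± 0.127 at ED (adjusted p = 7.55e-06) by edgeR's quasi-likelihood test, corrected over all 14065 genes. It was 0.91 ± 0.127 at MN (adjusted p = 7.58e-06) and 1.42 ± 0.131 at EN (adjusted p = 1.89e-08). Averaged over the 4 times TOC1 was 2.21-fold higher in CAM leaves (log2 1.14 ± 0.0695, adjusted p = 4.10e-12). The sum of its 4 group means was 463 CPM in CAM leaves and 227 CPM in reC3 leaves, whereas for PRR3 that sum was 89.7 CPM in CAM leaves and 89.6 CPM in reC3 leaves. The daily course of TOC1 kept its order in both modes: lowest at MD, then EN, with ED and MN on top. With TMM scaling ED and MN overlapped within each mode. Group means were 167 CPM at both times in CAM leaves, and 89.9 and 88.9 CPM in reC3 leaves. Every other step in the TMM-scaled order of the 8 groups was free of overlap, but some steps cross the sets of libraries. With library totals reC3 ED (124.7 CPM) lay above CAM EN (103.5 CPM), and CAM EN overlapped reC3 MN (103.4 CPM).

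The morning and daytime members behaved differently at the end of the night. PRR9, the first repressor of the Arabidopsis morning, was at 4.79, 3.56 and 2.65 CPM in CAM leaves at EN and at 13.9, 25.2 and 28.8 CPM in reC3 leaves. PRR3, whose protein binds TOC1 and shields it from the F-box protein ZTL, was at 3.74, 2.56 and 2.65 CPM in CAM leaves and at 7.71, 18.1 and 17.0 CPM in reC3 leaves. PRR5, a ZTL substrate that also helps TOC1 into the nucleus, was at 4.34, 3.70 and 4.16 CPM in CAM leaves and at 11.1, 15.6 and 22.1 CPM in reC3 leaves. For all of these genes every CAM library lay below every reC3 library, and reC3 replicate 1 was the lowest of the reC3 libraries. PRR7, another daytime repressor, was near its trough in both modes, with 0.449, 1.28 and 1.89 CPM in CAM leaves and 1.50, 1.42 and 1.50 CPM in reC3 leaves, and the groups overlapped.

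At EN 4 of the 5 members passed the test, 1 higher and 3 lower in CAM leaves, in a comparison in which 53.3% of all genes tested passed (24.1% higher and 29.2% lower). The log2 difference was -2.61 ± 0.323 for PRR9 (6.09-fold lower in CAM leaves, edgeR adjusted p = 9.79e-07), -2.25 ± 0.260 for PRR3 (4.76-fold lower, adjusted p = 3.71e-07) and -2.004 ± 0.345 for PRR5 (4.01-fold lower, adjusted p = 5.59e-05). TOC1 moved the other way in the same leaves. PRR7 differed by -0.33 ± 0.455 (adjusted p = 0.560). Leaving out each library in turn kept all 4 calls, with PRR9 between -2.86 and -2.39, PRR3 between -2.54 and -2.05 and PRR5 between -2.22 and -1.71. As a share of the sum of its 4 group means, EN held 4.41% for PRR9 in CAM leaves and 24.6% in reC3 leaves. That sum takes in both sets of libraries, and the shares depend on the scaling. With library totals PRR9 at EN was at 3.22 CPM in CAM leaves and 16.5 CPM in reC3 leaves.

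**Figure D2:**
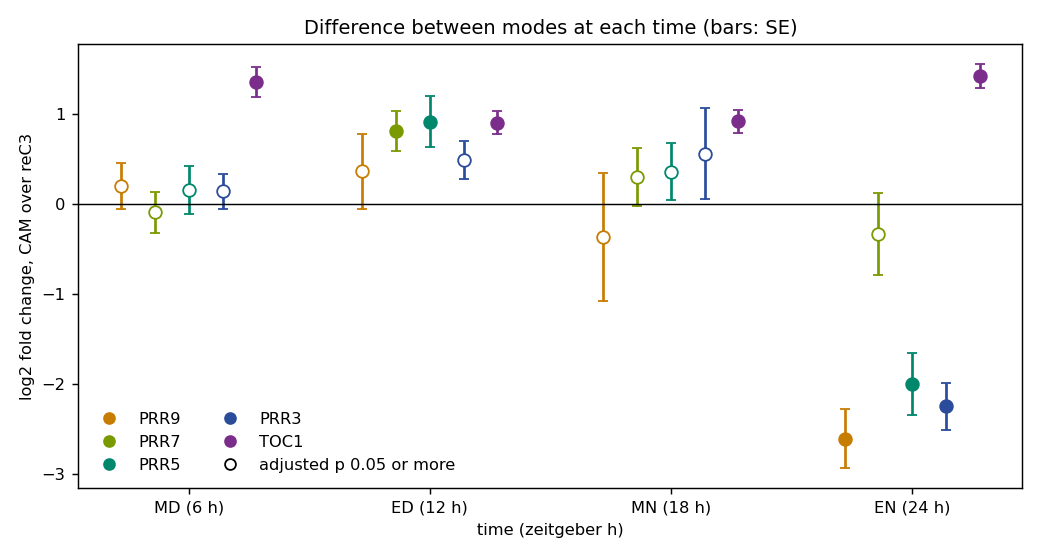
Difference between modes for each gene at each time (log2 of CAM over reC3; points are edgeR estimates from 3 libraries per group, bars are 1 standard error; filled points have an adjusted p under 0.05). TOC1 lies above 0 at all 4 times, and at EN PRR9, PRR3 and PRR5 lie at -2.61, -2.25 and -2.004.

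Marker genes of other leaf cell types also differed between the modes at EN. Summed over the 5 markers of photosynthetic leaf cells in the table, the level was 71426 to 91399 CPM in CAM leaves and 117679 to 196147 CPM in reC3 leaves, and 4 of the 5 were lower in CAM leaves. The 5 markers of dividing cells summed to 2.56 to 4.93 CPM in CAM leaves and to 12.6 to 29.9 CPM in reC3 leaves, with 3 lower in CAM leaves. The 4 epidermal markers summed to 472 to 506 CPM in CAM leaves and to 792 to 870 CPM in reC3 leaves, with 1 higher and 2 lower. Guard cell markers went the other way in sum: the 6 reached 198 to 226 CPM in CAM leaves and 146 to 148 CPM in reC3 leaves, although 1 was higher and 3 were lower. The 6 vascular markers summed to 386 to 637 CPM in CAM leaves and to 591 to 666 CPM in reC3 leaves, which overlap, with 1 higher and 5 lower. None of the markers in the table was at 0 in all 24 libraries. Some of these sums also changed with time within a mode. At ED the photosynthetic markers in reC3 leaves summed to 14700 to 25625 CPM, and the guard cell markers in CAM leaves to 33.8 to 40.8 CPM. Sums of vascular markers in reC3 leaves and of dividing-cell markers in CAM leaves overlapped between ED and EN. The part of these markers in the differences of the clock genes was not tested.

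At the end of the day PRR7 and PRR5 were higher in CAM leaves, along with TOC1. PRR7 stood at 35.8, 35.4 and 36.5 CPM in CAM leaves at ED and at 23.3, 20.0 and 18.1 CPM in reC3 leaves. PRR5 stood at 37.8, 39.1 and 37.2 CPM in CAM leaves and at 25.9, 16.6 and 18.1 CPM in reC3 leaves. The groups did not overlap for either gene, and for both the CAM libraries lay closer together than the reC3 libraries. With TOC1, 3 of the 5 members were higher at ED, where 45.4% of all genes passed (21.5% higher): PRR7 by 0.80 ± 0.224 (edgeR adjusted p = 0.00562) and PRR5 by 0.91 ± 0.281 (adjusted p = 0.0116). PRR3 was at 16.9, 17.4 and 17.2 CPM in CAM leaves, above 14.9, 11.3 and 10.3 CPM in reC3 leaves, but its difference of 0.49 ± 0.212 did not pass (adjusted p = 0.0660). PRR9 was low at dusk in both modes, at 2.02, 2.61 and 2.68 CPM in CAM leaves and at 3.01, 1.16 and 1.47 CPM in reC3 leaves, with overlap. The ED calls of PRR5 and PRR7 depended on the scaling: with library totals in place of TMM, PRR5 differed by 0.69 (adjusted p = 0.0717) and PRR7 by 0.58 (adjusted p = 0.0572), while 41.7% of all genes passed and their median shifted to -0.21. Without reC3 ED replicate 2, PRR5 missed the threshold as well (0.78, adjusted p = 0.0595), and without reC3 ED replicate 1 PRR3 passed it (0.66, adjusted p = 0.0306), as it did without reC3 EN replicate 1 (adjusted p = 0.00964) or 2 (adjusted p = 0.0488). Markers differed at ED too. The vascular markers summed to 224 to 259 CPM in CAM leaves and to 641 to 1239.5 CPM in reC3 leaves, with 1 of 6 higher and 5 lower, and those of dividing cells to 1.55 to 3.03 CPM in CAM leaves and to 9.81 to 20.1 CPM in reC3 leaves, with 4 of 5 lower. Guard cell markers (33.8 to 40.8 CPM in CAM leaves, 48.0 to 59.5 CPM in reC3 leaves, 2 of 6 lower) and epidermal markers (278 to 309.6 CPM in CAM leaves, 383 to 439 CPM in reC3 leaves, 2 of 4 lower) were lower in sum. Photosynthetic markers were higher in sum, at 30604 to 46716 CPM in CAM leaves and 14700 to 25625 CPM in reC3 leaves, with 1 of 5 higher and 1 lower. Their part was not tested at this time either.

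In the middle of the day, when PRR9, PRR5 and PRR3 were highest, their levels overlapped between the modes. PRR9 was at 73.7, 92.9 and 63.1 CPM in CAM leaves and at 67.5, 55.3 and 78.0 CPM in reC3 leaves. PRR5 was at 74.1, 82.4 and 78.3 CPM in CAM leaves, against 64.4, 72.5 and 74.1 CPM in reC3 leaves. PRR3 was at 60.6, 77.9 and 68.2 CPM in CAM leaves, against 62.8, 64.0 and 61.4 CPM in reC3 leaves. CAM and reC3 libraries overlapped for each of these genes, and also for PRR7, which had 26.1, 26.0 and 28.8 CPM in CAM leaves and 29.2, 27.7 and 29.6 CPM in reC3 leaves. TOC1 alone of the 5 passed at MD, where 44.0% of all genes did. The differences of the other 4 members lay between -0.10 ± 0.226 (PRR7) and 0.19 ± 0.254 (PRR9), with adjusted p-values of 0.561 to 0.757. Beside the TOC1 call at MD, all 5 markers of dividing cells were lower in CAM leaves (1.56 to 3.13 CPM in sum, against 21.4 to 119 CPM in reC3 leaves), as were 5 of 6 vascular markers with 1 higher (485 to 546 CPM in CAM leaves, 608 to 1282 CPM in reC3 leaves). Of the guard cell markers 2 were higher and 4 lower (48.3 to 54.8 CPM in CAM leaves, 65.6 to 72.0 CPM in reC3 leaves), and 2 of 4 epidermal markers were lower (245 to 269.97 CPM in CAM leaves, 365 to 399.7 CPM in reC3 leaves). Photosynthetic markers overlapped in sum at MD, with 2 of 5 lower. The part of these markers in the TOC1 difference was not tested.

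In the middle of the night TOC1 was again the single member past the threshold, in a comparison in which 38.6% of all genes passed. PRR9 had no read in CAM MN replicate 1, where 3 reads would have been 0.400 CPM, and 0.621 and 0.596 CPM in the other CAM libraries, against 0.534, 0.499 and 0.642 CPM in reC3 leaves. PRR3 was at 0.667, 0.745 and 0.696 CPM in CAM leaves and at 0.667, 0.499 and 0.257 CPM in reC3 leaves. At these levels a difference of PRR9 or PRR3 was hardly detectable, and their standard errors at MN were 0.709 and 0.508 on the log2 scale. For PRR5 and PRR7 the library CAM MN replicate 2 stood apart: PRR5 had 4.67, 16.9 and 6.66 CPM in CAM leaves, against 6.54, 7.98 and 7.44 CPM in reC3 leaves. PRR7 had 1.60, 4.84 and 2.29 CPM in CAM leaves, against 3.20, 2.24 and 1.67 CPM in reC3 leaves. The PRR5 difference of 0.36 became -0.32 without that library, and that of PRR7, 0.29, became -0.22. Neither passed the threshold with or without it. At MN the markers of dividing cells (2.27 to 3.78 CPM in CAM leaves, 8.10 to 10.9 CPM in reC3 leaves), of vascular cells (325 to 327 CPM in CAM leaves, 456 to 562 CPM in reC3 leaves) and of the epidermis (446 to 562 CPM in CAM leaves, 669 to 720.2 CPM in reC3 leaves) were lower in sum, guard cell markers were higher (115 to 131 CPM in CAM leaves, 62.7 to 72.0 CPM in reC3 leaves), and photosynthetic markers overlapped. Of these lists 2 of 5, 3 of 6, 1 of 4, 2 of 6 and 0 of 5 genes passed as lower in that order, with 1 vascular and 1 guard cell marker higher. Their part in the TOC1 difference at MN was not tested.

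The dependence of the mode difference on time was tested directly. Of the 5 members 4 passed the test for an interaction of mode and time, against 46.8% of all genes: PRR3 (edgeR adjusted p = 9.26e-06), PRR9 (adjusted p = 7.68e-05), PRR5 (adjusted p = 0.000195) and TOC1 (adjusted p = 0.0353). PRR7 did not pass (adjusted p = 0.0721). TOC1 missed the threshold in 12 of the 24 leave-one-out fits, with adjusted p-values of up to 0.0722. These were the fits without reC3 MD 2, CAM MN 2 or 3, reC3 MN 2 or 3, CAM ED 1 or 3, reC3 ED 1, CAM EN 2 or 3, and reC3 EN 1 or 2. PRR7 passed without CAM MN 1 (adjusted p = 0.0401), CAM MN 2 (0.00830) or CAM EN 3 (0.0386), and by DESeq2 (0.00737). Over MD, ED and MN alone none of the 5 passed by edgeR, and 1 had an unadjusted p under 0.05, while 29.3% of all genes passed. Averaged over the 4 times, TOC1 (higher in CAM leaves) and PRR9 (lower, -0.61 ± 0.235, adjusted p = 0.0281) passed, where 64.8% of all genes did. Without EN the PRR9 average was 0.06 (adjusted p = 0.883), and it also missed the threshold without CAM MN replicate 1, without reC3 MN replicate 3 and without reC3 ED replicate 1. The averages of the other members were -0.27 for PRR3, -0.15 for PRR5 and 0.17 for PRR7, and none of these passed. Without CAM MN replicate 2 the PRR5 average was -0.32 (adjusted p = 0.0125), and without reC3 EN replicate 1 the PRR3 average was -0.34 (adjusted p = 0.0492).

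Within each mode all 5 genes differed between times, in CAM leaves (77.9% of all genes) and in reC3 leaves (72.7% of all genes), with adjusted p-values of 1.65e-08 or less. Between the middle of the night and the middle of the day all 5 changed in CAM leaves, where 52.0% of all genes did (26.5% lower at MN), and all 5 in reC3 leaves, where 43.4% did (21.7% lower at MN). TOC1 was 17.6-fold higher at MN than at MD in CAM leaves (log2 4.14 ± 0.150) and 23.8-fold higher in reC3 leaves (4.57 ± 0.161). In both modes it ranked 2 of 14065 genes by p. The other members were lower at MN. PRR9 fell by 7.43 on the log2 scale in CAM leaves and by 6.86 in reC3 leaves, and PRR3 by 6.58 in CAM leaves and 7.0 in reC3 leaves. PRR7 fell by 3.21 in CAM leaves and 3.60 in reC3 leaves, and PRR5 by 3.06 in CAM leaves and 3.26 in reC3 leaves. The test of a difference between modes in this MN to MD step was passed by 0 members, by edgeR and by DESeq2, and by 22.3% of all genes in edgeR. At MN a group held only 11 to 18 reads in all of PRR9 or PRR3. Their differences between modes, -0.57 ± 0.759 for PRR9 and 0.42 ± 0.538 for PRR3, are too imprecise to show equal steps. By edgeR 1 member, TOC1 (-0.44 ± 0.209, adjusted p = 0.139), had an unadjusted p under 0.05, and by DESeq2 0 members had.

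Between the end of the night and the end of the day the modes parted. In CAM leaves TOC1 (-0.49 ± 0.126), PRR3 (-2.51 ± 0.253), PRR5 (-3.22 ± 0.334) and PRR7 (-4.92 ± 0.317) were lower at EN than at ED, 4 of 5 where 63.7% of all genes passed (32.2% lower). PRR9 differed by 0.60 ± 0.385 in CAM leaves and did not pass (adjusted p = 0.177). In reC3 leaves 3 of 5 passed, where 57.9% of all genes did (28.8% lower): TOC1 (-1.01 ± 0.13) and PRR7 (-3.79 ± 0.316) were lower at EN, and PRR9 was 11.8-fold higher (3.57 ± 0.346, adjusted p = 1.14e-08). PRR3 (0.23 ± 0.219) and PRR5 (-0.31 ± 0.294) did not pass in reC3 leaves. With library totals the median of all genes in this comparison shifted to -0.97, and all 5 members and 74.3% of all genes passed, with PRR3 at -0.70 (adjusted p = 0.0203) and PRR5 at -1.24 (adjusted p = 0.00128), values that include that shift. Without reC3 EN replicate 1, PRR3 was at 0.52 (adjusted p = 0.0120).

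**Figure D3:**
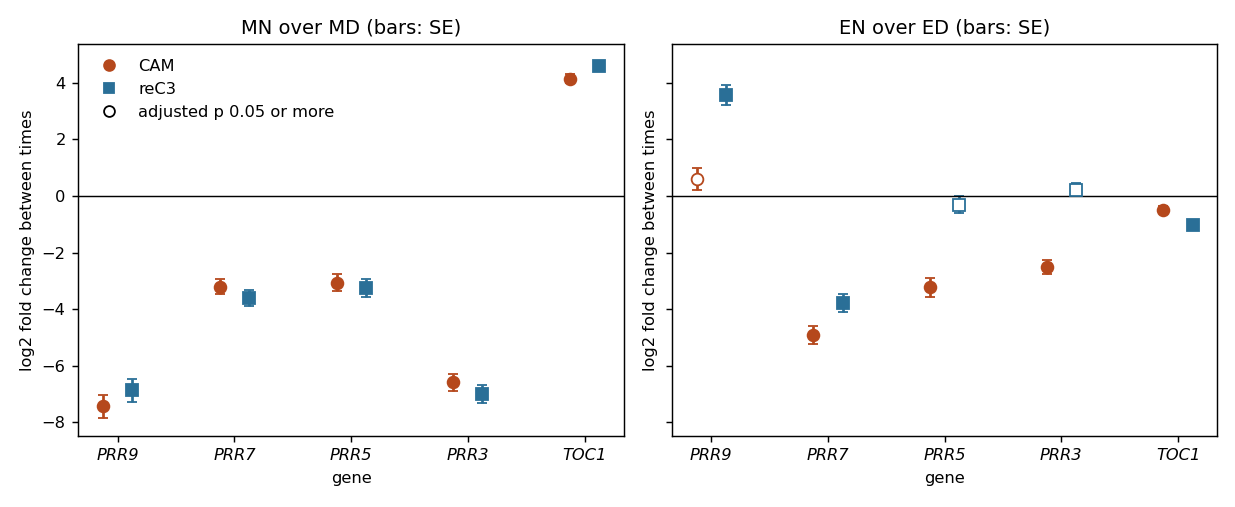
Difference between times within each mode for each gene (log2; MN over MD at the left and EN over ED at the right; points are edgeR estimates, bars 1 standard error). For MN over MD none of the 5 passed the test of a difference between modes, and PRR9 and PRR3 had few reads at MN. For EN over ED the CAM and reC3 estimates part in PRR9, PRR5 and PRR3.

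The EN to ED difference was itself different between modes for 4 of the 5 members, against 36.2% of all genes (19.0% with a negative difference). The difference of differences (CAM minus reC3) was -2.96 ± 0.528 for PRR9 (edgeR adjusted p = 0.000206), -2.91 ± 0.445 for PRR5 (adjusted p = 4.90e-05) and -2.74 ± 0.337 for PRR3 (adjusted p = 4.26e-06). For TOC1 it was 0.52 ± 0.181 (adjusted p = 0.0280), a call lost without CAM ED 1 or 3, reC3 ED 1, CAM EN 2 or reC3 EN 1 (adjusted p up to 0.0791) and in the fit to the ED and EN libraries alone (0.53, adjusted p = 0.0793). PRR7 had -1.14 ± 0.510 (adjusted p = 0.0860), and passed without CAM MN 2 (adjusted p = 0.0392) or CAM EN 3 (adjusted p = 0.0362).

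The time of the highest level was the same in both modes for PRR9, PRR5 and PRR3, at MD. For PRR7 it was ED in CAM leaves, at 35.9 ± 0.556 CPM against 27.0 ± 1.58 CPM at MD, and MD in reC3 leaves, at 20.5 ± 2.63 CPM at ED and 28.8 ± 0.998 CPM at MD (SD, n = 3 each). The MD and ED libraries did not overlap in either mode, but they belong to different sets of libraries. With library totals the reC3 order turned round, to 28.4 CPM at ED and 25.6 CPM at MD. The lowest group mean fell at EN for PRR7 in both modes and at MN for PRR9 and PRR3 in both modes. In CAM leaves the PRR7 libraries at EN (0.449 to 1.89 CPM) overlapped those at MN (1.60 to 4.84 CPM). MN and EN also belong to different sets of libraries. PRR5 was lowest at EN in CAM leaves (4.07 ± 0.331 CPM) and at MN in reC3 leaves (7.32 ± 0.730 CPM). In the order of the 8 groups, PRR9 in reC3 leaves at EN ranked 3 of 8 at 22.6 ± 7.76 CPM, below both MD groups and clear of all groups beneath it, of which CAM EN (3.66 ± 1.07 CPM) was the highest and overlapped CAM ED. PRR3 in reC3 leaves at EN (14.3 ± 5.69 CPM) overlapped both ED groups, and PRR5 there (16.3 ± 5.55 CPM) overlapped reC3 ED and CAM MN.

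By edgeR's estimate over all 24 libraries, replicates varied least for TOC1 and PRR7. In CAM leaves PRR7 libraries spread widely where levels were low: the SD was 58.8% of the mean at MN and 60.1% at EN. The biological coefficient of variation estimated by edgeR was 0.116 for TOC1, 0.132 for PRR7, 0.169 for PRR3, 0.220 for PRR9 and 0.238 for PRR5, beside 0.196 common to all genes. Over the 24 libraries the log2 levels of PRR3 and PRR5 correlated at r = 0.87, PRR3 and PRR9 at 0.87 and PRR5 and PRR7 at 0.86, while TOC1 and PRR9 ran opposite at -0.87. PRR7 and PRR9 correlated at 0.38. These correlations describe libraries that share times of day, modes and sequencing sets.

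The genes whose course over the 24 libraries was most like that of each member, among 10650 genes compared, differed between the members. For PRR9 the closest was LNK2 (r = 0.96), which in Arabidopsis is a dawn coactivator working with RVE8. Next came AT5G40500 (0.95), the photosystem II antenna genes AT2G05070 (0.94) and AT3G27690 (0.93), and AT2G05620, annotated as proton gradient regulation 5 (0.94). PRR3 was most like AT5G57345 (0.95), and 3 of its 5 closest genes were annotated as chlorophyll-binding antenna proteins: AT5G28450 (0.95), AT1G29910 (0.94) and AT3G61470 (0.94). PRR5 was closest to the zinc-binding dehydrogenase AT1G22430 (0.96) and also to AT5G57345 (0.94). For PRR7 the closest was AT5G21970, a ubiquitin carboxyl-terminal hydrolase family gene (0.96), and for TOC1 AT4G28240, a wound-responsive family gene (0.95).

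The clock genes that the family acts on and with were read from lists of the Arabidopsis clock. The direct targets CCA1 and LHY, Myb factors of dawn, peaked at EN in both modes and did not pass there. CCA1 ranged over 464 to 585 CPM in CAM leaves and 558 to 644 CPM in reC3 leaves (-0.19, adjusted p = 0.350), and LHY over 2053 to 2259 CPM in CAM leaves and 2278 to 2575 CPM in reC3 leaves (-0.18, adjusted p = 0.393). Of the 11 morning genes tested 2 were higher and 1 lower in CAM leaves at EN: RVE8, an activator of evening genes, at 0.88 ± 0.16 (adjusted p = 0.000100), its relative RVE6 at 0.64 ± 0.16, and LNK2 at -1.66 ± 0.34 (adjusted p = 0.000394). LNK2 had 8.52 to 9.28 CPM in CAM leaves and a wide 9.96 to 45.7 CPM in reC3 leaves. At MD 6 of the 11 were higher and 0 lower, and at ED and at MN 2 were higher and 0 lower. Of all genes 53.3% passed at EN (24.1% higher and 29.2% lower), 44.0% at MD, 45.4% at ED and 38.6% at MN. The median of the 11 was 0.01 at EN, where the median of all genes was -0.08.

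Of the 7 evening genes tested, 5 were higher and 1 lower in CAM leaves at ED, and 2 were higher and 1 lower at MD. At MN 1 was higher and 2 were lower, and at EN 1 was higher and 1 lower. Of all genes 45.4% passed at ED (21.5% higher), 44.0% at MD, 38.6% at MN and 53.3% at EN. ZTL, the F-box protein that marks TOC1 and PRR5 for breakdown, was higher in CAM leaves at ED (87.7 CPM in CAM leaves against 66.3 CPM in reC3 leaves, log2 0.40 ± 0.11, adjusted p = 0.00580) and lower at EN (18.1 CPM in CAM leaves against 24.3 CPM in reC3 leaves, -0.42 ± 0.12, adjusted p = 0.00656). It was also higher at MD (0.73 ± 0.12) and lower at MN (-0.31 ± 0.11). FKF1, of the same F-box family, was higher at ED (270.1 CPM in CAM leaves against 143 CPM in reC3 leaves, 0.92 ± 0.19). ELF4, a part of the evening complex, was lower at ED (8.88 CPM in CAM leaves against 31.0 CPM in reC3 leaves, -1.80 ± 0.28, adjusted p = 1.89e-05). At MN ELF4 ranged over 0.267 to 1.99 CPM in CAM leaves and 8.85 to 9.88 CPM in reC3 leaves.

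**Figure D4:**
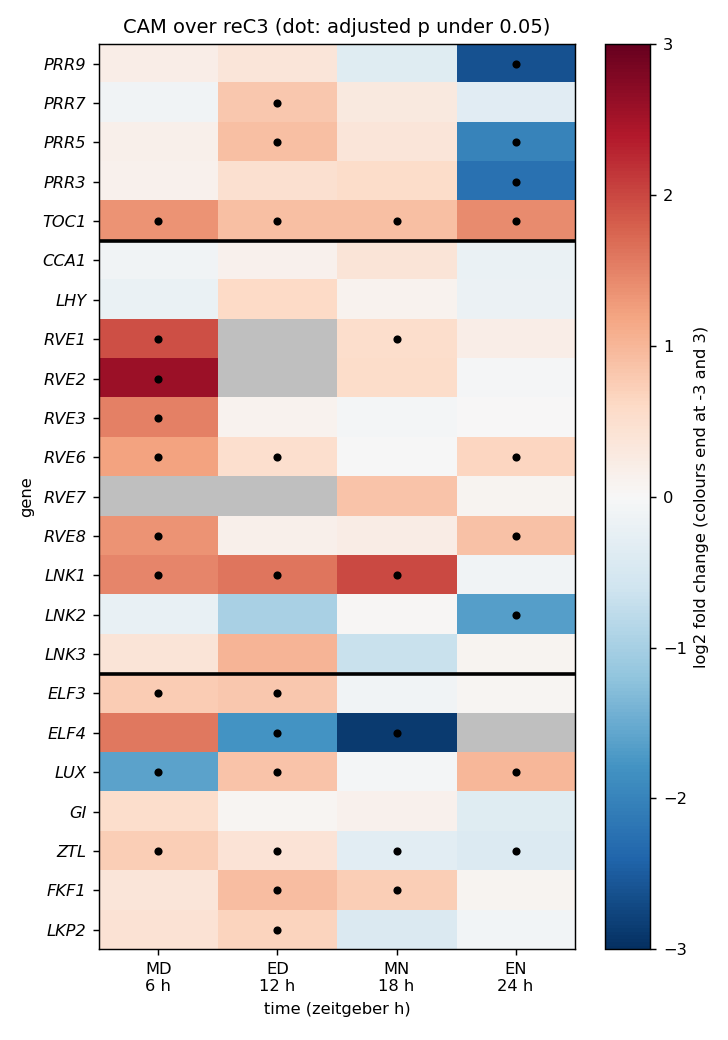
Difference between modes (colour, log2 of CAM over reC3 in edgeR; dots mark an adjusted p under 0.05) for the 5 pseudo-response regulators, the 11 morning and the 7 evening clock genes at MD, ED, MN and EN; the 5 grey cells are those in which a group had 3 reads or fewer in all. The 3 strong decreases of PRR9, PRR5 and PRR3 stand in the EN column, beside the increase of TOC1 and the decrease of LNK2. Outside that column ELF4 is lower in CAM leaves at ED (-1.80) and at MN (1.25 CPM in CAM leaves against 9.45 CPM in reC3 leaves).

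Among 13 genes that act with the family, 6 were higher and 3 lower in CAM leaves at EN. Of all genes 24.1% were higher and 29.2% lower in that comparison. TPL, a corepressor that PRR9, PRR7 and PRR5 recruit, was lower at EN (407 CPM in CAM leaves against 570.2 CPM in reC3 leaves, -0.49 ± 0.17, adjusted p = 0.0214) and also at MD and ED. PRMT5, a methyltransferase needed for correct splicing of PRR9, was higher at EN (11.8 CPM in CAM leaves against 6.13 CPM in reC3 leaves, 0.94 ± 0.22, adjusted p = 0.00117), and likewise at ED and MN. SKIP, a splicing factor of PRR7 and PRR9 transcripts, was higher at EN (211 CPM in CAM leaves against 109 CPM in reC3 leaves, 0.96 ± 0.12, adjusted p = 1.09e-06) and at the other times. LWD1, an activator of PRR9, PRR5 and TOC1, was higher at EN (45.3 CPM in CAM leaves against 25.3 CPM in reC3 leaves, 0.84 ± 0.13, adjusted p = 2.16e-05). It was lower in CAM leaves at MD (18.6 CPM in CAM leaves against 28.5 CPM in reC3 leaves, -0.62 ± 0.14, adjusted p = 0.000925) and at ED (28.8 CPM in CAM leaves against 40.3 CPM in reC3 leaves, -0.49 ± 0.13, adjusted p = 0.00447), and did not pass at MN. Of 7 further targets tested 1 was higher at EN, PIF3, a light-signalling factor (24.5 CPM in CAM leaves against 8.79 CPM in reC3 leaves, 1.47 ± 0.26), and 2 were lower, PIF1 (-1.05 ± 0.31) and CDF3 (-0.52 ± 0.19), a Dof factor of the daytime. PIF3 was higher at the other times too, PIF1 was also lower at MD and MN, and CDF3 was lower at MD and MN but higher at ED (0.62 ± 0.24, adjusted p = 0.0416).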

How the data were processed

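Poly(A) RNA of mature leaves was sequenced in single-end mode after TruSeq v2 preparation, which does not mark strand, per the labels' protocols. The submitters' processing notes name CASAVA 1.8.2 and TAIR10; the aligner and counter were not given in the sources used here. The authors deposited 1 table of read counts per Arabidopsis identifier, used as deposited; its 40 other value columns were not used. Counts of all 24 libraries were fitted together, 1 coefficient per group, in edgeR 4.0.16 (R 4.3.3; filterByExpr, TMM, robust quasi-likelihood test), with Benjamini-Hochberg adjustment over 14065 genes and a threshold of 0.05. Standard errors are the log2 difference over the root of F. The fit was tested on simulated data with 200 genes changed 1.5-, 2- or 4-fold. It recovered 4.5%, 67% and 96.5% of them between modes at EN, and 0%, 64% and 96% for MN against MD in CAM leaves. For the EN to ED difference between modes it recovered 0%, 15% and 88%. The 200 changed genes were among 13817 to 13821 genes run. In the data 53.3% of all genes passed at EN and 52.0% for MN against MD in CAM leaves. For the EN to ED difference between modes 36.2% passed. The adjustment depends on how many genes change, so these recovery rates do not carry over to the data. Recovery at the data's own share of changed genes was not tested. Small changes could still be missed. The labels call the replicates biological without naming the plants, and p-values measure the spread between them.

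Named are all 5 members, CCA1, LHY and up to 5 genes most like each member. Other clock genes were picked from those listed that passed the threshold and reached 10 CPM in the higher group. That pool held up to 6 per list and comparison, by smallest p, and not all of it is named. Where further times of a named gene are given, the limit of 10 CPM was not applied. Members and lists were chosen with earlier results of these data known. Alternatives were DESeq2 1.42.0, its size factors, no filter, a replicate block, the 12 libraries of a set and leaving out each library; library totals, leaving out EN, and leaving out reC3 MD replicate 3 with reC3 EN replicate 1 were added after seeing the data. Replicates differed beyond sampling noise (chi-square over its degrees of freedom: 3.91 to 128). The highest values lay in reC3 EN (replicate 1 against 2: 128, 1 against 3: 77.2) and in reC3 MD (replicate 3 against 1: 89.5, 3 against 2: 50.2). The EN differences of PRR9, PRR3 and PRR5 rest on that reC3 EN group. No sequences are shown.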

Additional observations from a re-analysis of the deposited data

Results flagged for a closer look

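The mode difference changed with time for 4 members in the test of the interaction itself (edgeR): PRR3 at an adjusted p of 9.26e-06, PRR9 at 7.68e-05, PRR5 at 0.000195 and TOC1 at 0.0353. The EN to ED difference differed between CAM and reC3 leaves, as a log2 difference of differences, by -2.96 for PRR9, -2.91 for PRR5 and -2.74 for PRR3. For TOC1 it was 0.52, a call lost in 5 of the leave-one-out fits. In the libraries behind these differences, PRR9 averaged 3.66 ± 1.07 CPM at EN and 2.44 ± 0.364 CPM at ED in CAM leaves, and 22.6 ± 7.76 CPM at EN and 1.88 ± 0.990 CPM at ED in reC3 leaves (SD, n = 3 each).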

How the results depend on the processing

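DESeq2, its size factors, no filter and the fit to 1 set of libraries left the counts of members that passed within 1.5 times. With library totals 1 member passed at ED (41.7% of all genes), and 5 passed for EN against ED in reC3 leaves (74.3%), where PRR3 turned to -0.70. The average difference was called for 1 member over MD and MN (51.2% of all genes), with PRR3 at 0.35 and PRR5 at 0.25, and for 4 over ED and EN (55.1%). Without EN 0 members passed the interaction by edgeR (4122 genes or 29.3%, against 6583 with EN), and the averages turned to 0.39 for PRR3 (adjusted p = 0.0869), 0.47 for PRR5 (adjusted p = 0.0186) and 0.060 for PRR9. Leaving out 1 library at a time, the count of members past the threshold ranged over 1 to 3 for the average, 2 to 4 at ED, 3 to 5 for the interaction, 3 to 4 for EN against ED in reC3 leaves and 3 to 5 for its difference between modes. Signs turned for differences that had not passed: at MN PRR9 ranged over -0.76 to 0.12, PRR5 over -0.32 to 0.67 and PRR7 over -0.22 to 0.56. Between MN and MD, the difference between modes ranged over -0.38 to 0.51 for PRR5 and -0.033 to 0.66 for PRR7, and PRR7 at EN ranged over -0.74 to 0.076. The interaction of TOC1 reached 0.0544 with no filter and 0.0759 without reC3 MD replicate 3 and reC3 EN replicate 1, and that of PRR7 0.00737 by DESeq2. The causes were not tested.

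With the replicate number as a block no member's call changed, and at EN 4 members passed as before. Pairing by number was checked on log2 levels after subtracting each gene's group mean. No pairing was seen over all groups together: same-numbered libraries of different groups correlated at a median of 0.00995, differently numbered ones at -0.00529. Of 24 libraries 10 correlated best with their own number. Between CAM MN and reC3 MN the same-numbered correlations were 0.0869 to 0.264. The labels name no plants, so a pairing cannot be checked against them.

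Depth limits PRR9 and PRR3 at MN and PRR7 at EN, where levels lie near that of a few reads.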

Other observations

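APRR2, a more distant relative of the family, was the 1 of 4 other pseudo-response regulators in the table that passed the filter on low counts. It was at 17.98 to 21.0 CPM in CAM leaves and at 21.5 to 26.9 CPM in reC3 leaves at EN, without overlap, and did not pass at any of the 4 times. AT2G46670, the best match of PRR9 in the annotation, described after its values were seen, was at 1.99 to 2.14 CPM in CAM leaves and at 1.63 to 1.66 CPM in reC3 leaves at MD. At EN it had 0 reads in all CAM libraries and 2 reads in all over the reC3 libraries.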
